A study of Mus musculus with 2 samples.

Results

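The genes described here encode the nuclear subunits of the mitochondrial respiratory chain and the ATP synthase, with their closest assembly factors. They were taken as every probe set whose only gene symbol on the array platform starts with Nduf, Sdha, Sdhb, Sdhc, Sdhd, Uqcr, Cox4, Cox5, Cox6, Cox7, Cox8 or Atp5. The rule found 185 of 45037 probe sets and 94 of 18193 named genes, and it used no measured value. Of the 94 genes, 74 encode subunits of complexes I to V, 12 are assembly factors and 8 are isoforms made mainly in particular tissues. Another 10 probe sets carry such a symbol together with others and were left out.

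RNA came from B cells of mice of the NOD strain, which is prone to autoimmune diabetes, at 8 weeks of age. The cells lacked Thy1 and CD11c and carried B220. The AIRE transgenic group carries human AIRE under an MHC class II promoter, which is active in antigen-presenting cells in general and not in B cells alone, and the other group is non-transgenic on the same NOD background. Each group is 1 array of cells from 2 mice, so that a transgenic pool was compared with a non-transgenic pool once. There is no replicate, no test and no error for any ratio, and each value describes these 2 arrays only. The sources used here do not give the organ the cells came from or the number of transgenic lines. Mouse Aire, read by 1 probe set that was not shown to detect the human transgene, lay under the filter described below on both arrays, so it does not check the labels.

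In the inner mitochondrial membrane sits the respiratory chain. Complex I takes electrons from NADH and complex II from succinate, complex III passes them from ubiquinol to cytochrome c, and complex IV hands them to oxygen, while complexes I, III and IV pump protons out of the matrix. Complex V, the ATP synthase, lets the protons back through a rotating ring and makes ATP. B cells use this system at rest and raise it after activation.

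Values below are signal intensities as deposited, in arbitrary units, and a ratio is the log2 of the transgenic over the non-transgenic intensity. Intensities under 25 were raised to that floor first. Each gene is given by its probe set of highest mean level, and it counted as above the filter when its higher intensity reached 98.8, the median of all probe sets. In this way 10804 genes lay above the filter, with a median log2 ratio of 0.015 and an SD across genes of 0.58. Among them 4481 genes had a mean intensity of at least 1000, with a median ratio of 0.08 and an SD of 0.43. Of the 94 respiratory chain and ATP synthase genes, 89 lay above the filter and 77 reached a mean of 1000.

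As a whole, these genes stood close to equal on the arrays. The median log2 ratio of the 89 genes was 0.12, a 1.08-fold difference, with an SD across genes of 0.31 and a range from -0.63 to 1.03. Only Atp5k was at least 2-fold higher (1 of 89, against a background of 2.7% of all genes above the filter) and none was at least 2-fold lower (background 4.76%). At 1.5-fold, 6 of 89 (6.74%) were higher and 1 of 89 (1.12%) was lower, against backgrounds of 9.83% and 13.2%. Among genes with a mean of at least 1000, the shares past 1.5-fold were 7.32% higher and 7.16% lower, and those past 2-fold 0.759% and 1.61%. The share of these genes past 1.5-fold was thus not above the background in either direction. A ratio above 0 was found for 60 of 89 (67.4%), against 51.2% of all genes above the filter and 58.2% of those with a mean of at least 1000.

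**Figure D1:**
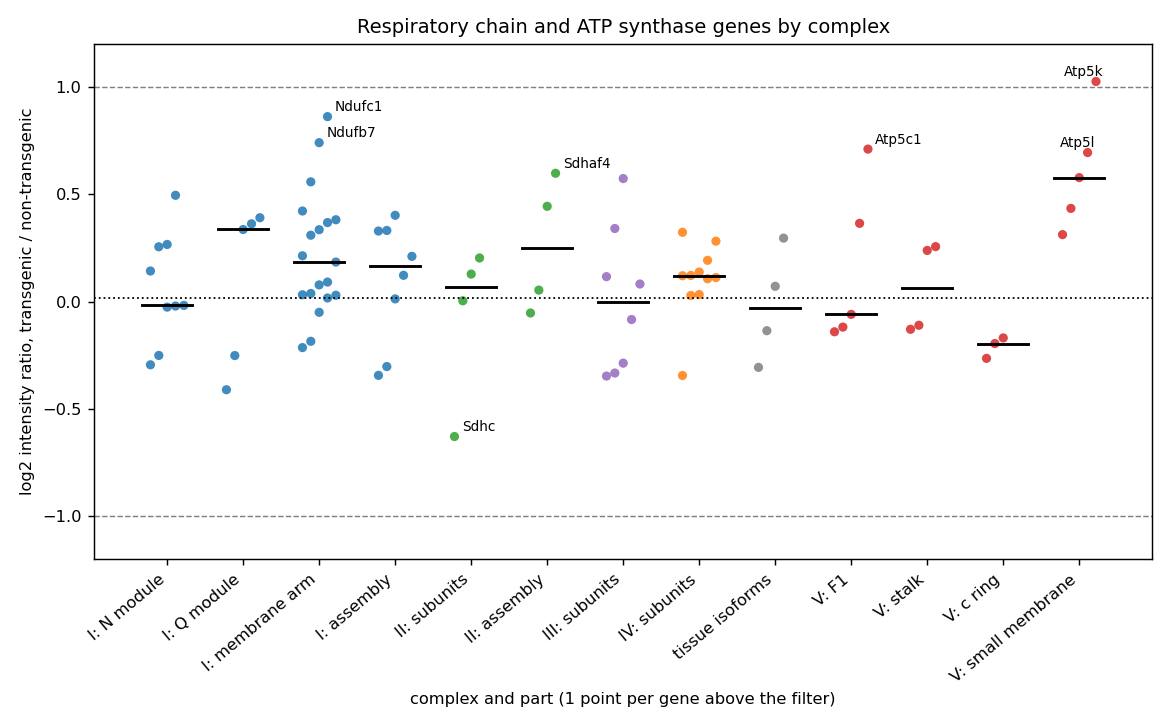
Each point is the log2 intensity ratio, transgenic over non-transgenic, of 1 gene above the filter, set out by complex and part, with a black bar at the median of each part. The dotted line is the median of all genes above the filter (0.015) and the dashed lines mark 2-fold; most points lie near the dotted line, the 5 small membrane subunits of the ATP synthase all lie above it and the 3 c ring genes below it.

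Complex I subunits had a median log2 ratio of 0.14 over 33 genes, and 23 of them lay above 0. Without the probe sets whose names mark them as shared, cross-hybridising or common to several transcripts, it was 0.023 over the 26 genes left. In the N module, which oxidises NADH, the median was -0.018 over 9 genes with a range from -0.29 to 0.50. Ndufv1, which binds NADH and the flavin, stood at 2088 in transgenic cells and 2126 in non-transgenic cells (-0.026), but its other probe sets were higher, at 2052 and 1581 (0.38) and at 1894 and 1597 (0.25). Ndufs1, the large iron-sulfur subunit, stood at 2180 and 1812 (0.27). The probe sets of Ndufv1 thus lay on both sides of 0. By the representing probe sets, the top of the module was the accessory subunit Ndufa2 at 7196 and 5106 (0.50). Ndufv2 was at 4305 in transgenic cells and 3607 in non-transgenic cells (0.26). Its other probe sets, both with marked names, were higher than that of Ndufa2, at 0.72 and 0.78.

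In the Q module, which passes electrons to ubiquinone, 3 of 5 genes lay above 0 and 2 below. The iron-sulfur subunit Ndufs7 was at 3094 and 2451 (0.34), and its other probe set was at 0.0028. The iron-sulfur subunit Ndufs8 was at 4705 and 6253 (-0.41), the lowest ratio in complex I. Its probe sets did not share that direction, since 4 of the 5 others lay above 0 and all 5 lay between -0.10 and 0.15. The other members of this module were Ndufs3 at -0.25, Ndufa9 at 0.36 and Ndufa5 at 0.39.

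The membrane arm, where the proton pumping takes place, had a median of 0.18 over 19 genes, and 16 of them lay above 0. Ndufc1, a small subunit that spans the membrane, was at 2525 in transgenic cells and 1390 in non-transgenic cells (0.86). Its other probe set differed by less, at 1170 and 1053 (0.15). Ndufb7, which lies on the outer face of the arm, was at 3922 and 2347 (0.74), while its other probe set was at 1873 and 1892 (-0.014). For both genes past 1.5-fold in complex I, the larger difference thus came from 1 of 2 probe sets. By the representing probe sets, Ndufb8 followed at 3224 and 2190 (0.56) and Ndufa8 at 2616 and 1953 (0.42). Ndufc2 was at 6021 and 4859 (0.31), and its other probe sets above the filter were at 0.34 and 0.77. The lowest of the arm was Ndufb9 at 4023 and 4668 (-0.21), with another probe set at 0.45. Ndufab1, the mitochondrial acyl carrier protein, was at 2191 and 2134 (0.038), while its other probe sets above the filter were at 802 and 627 (0.36) and at 322 and 267 (0.27). The only probe set of Ndufb4 alone lay under the filter on both arrays (36.9 and 62.4).

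Complex I assembly factors, which build the complex and are not part of it, had a median of 0.17 over 8 genes, with 6 above 0. They ran from Ndufaf6 at 222 and 282 (-0.34) to Ndufaf5 at 449 and 340 (0.40). None was 1.5-fold apart.

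Complex II held the lowest ratio of all 89 genes, in Sdhc, which anchors the complex in the membrane and carries its heme. Sdhc was at 1704 in transgenic cells and 2635 in non-transgenic cells (-0.63), and its other probe set was also lower, at 1027 and 1509 (-0.56). Of the 4 subunits, 1 was thus at least 1.5-fold lower, against 13.2% of all genes above the filter. Both probe sets of Sdhc have names that mark them as cross-hybridising or common to several transcripts. Without such probe sets Sdhc had no value, and the 3 subunits left had a median of 0.13. The other anchor, Sdhd, was at 1643 and 1639 (0.0039), with another probe set at 0.67. Of the matrix subunits, the flavoprotein Sdha was at 4517 and 3924 (0.20, with others at 0.38 and -0.16) and the iron-sulfur subunit Sdhb at 4633 and 4239 (0.13). The 4 subunits thus did not share a direction, and their median was 0.066. Among the assembly factors, Sdhaf4, which helps to join Sdha to Sdhb, was at 2015 and 1332 (0.60). Sdhaf3 was at 498 and 366 (0.44), Sdhaf2, which attaches the flavin to Sdha, at 2187 and 2108 (0.054), and Sdhaf1 at 1132 and 1175 (-0.053).

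The 8 complex III genes found by the rule were divided evenly, with 4 of 8 above 0 and a median of -0.00084. Cyc1, the cytochrome c1 of this complex, does not match the rule and is given below, at 0.64, above each of these 8. The core protein Uqcrc2 was at 4556 and 3062 (0.57), and its other probe set agreed in direction at 0.46. Its partner core protein Uqcrc1 was at 2892 and 3642 (-0.33). The Rieske iron-sulfur protein Uqcrfs1, which carries electrons towards cytochrome c, was at 2963 and 3768 (-0.35). The core proteins and the Rieske protein thus lay on both sides of 0. Uqcrb was at 24614 and 30025 (-0.29) while another of its probe sets was at 0.15, and the hinge protein Uqcrh at 10225 and 8075 (0.34). The small subunits Uqcr11, Uqcr10 and Uqcrq lay between -0.084 and 0.12. Uqcr10 and Uqcrq each had another, dimmer probe set more than 1 log2 unit away, at 1.47 (115 and 41.5) and -1.19 (264 and 602).

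Complex IV was the most even, with 10 of 11 genes above 0, a median of 0.12 and an SD of 0.17. Cox4i1, a regulatory subunit that binds ATP, was at 13118 and 12186 (0.11), and Cox5a at 11261 and 11042 (0.028), with other probe sets at 0.18 and -0.31. Cox5b, which binds zinc, was at 8219 and 7554 (0.12), but its 4 other probe sets above the filter ran from -0.34 to 0.24. Ndufa4, named for complex I but a subunit of complex IV, was at 2537 and 2334 (0.12). By the representing probe sets the differences of these subunits were small and of the same sign. Cox7a2l, a protein that joins complexes III and IV into supercomplexes, was the highest at 7115 and 5688 (0.32), and its other probe sets were at 0.036 and 0.39. Cox8a was the only gene below 0, at 2799 and 3553 (-0.34), and its 2 other probe sets were lower too, at -0.74 and -0.61. The remaining members were Cox7c at 0.033, Cox7a2 at 0.11, Cox6a1 at 0.14, Cox6b1 at 0.19 and Cox6c at 0.28. Without the probe sets marked as shared, cross-hybridising or common to several transcripts, the median of complex IV was -0.026 over 8 genes.

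Of the isoforms of complex IV subunits made mainly in heart, muscle, testis or other tissues, 4 of 8 lay above the filter and none of these was 1.5-fold apart. Cox6a2, the heart and muscle form, was at 350.2 in transgenic cells and 333 in non-transgenic cells (0.071). The testis forms Cox8c and Cox6b2 were at 362 and 398 (-0.14) and at 136 and 111 (0.30). The lung form Cox4i2 reached the filter on the non-transgenic array only, at 82.0 and 101.4 (-0.31). The heart and muscle form Cox7a1 lay under the filter at 51.4 and 51.1, and so did Ndufa4l2, a form induced by low oxygen, at 59.5 and 13.6. Cox8b (22.2 and 4.1) and Cox7b2 (1.5 and 23.6) lay under the floor on both arrays. No detection calls were used here, so a low intensity above the filter does not show that a transcript was present.

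The ATP synthase differed most between its parts. At least 1.5-fold higher were 3 of its 17 genes (17.6%), against 9.83% of all genes above the filter, a small count. The 17 genes had a median log2 ratio of 0.24, with 9 above 0 and 8 below. That median rests on the choice of probe sets, since it was 0.043 with each gene's probe sets averaged, -0.041 with the median over its probe sets above the filter and -0.11 over the 13 genes left without the marked probe sets. All 5 small subunits of the membrane part lay above 0, from 0.31 to 1.03 with a median of 0.58, while all 3 genes of the c ring lay below, from -0.26 to -0.17 with a median of -0.20. The 2 remaining parts lay between these, with medians of -0.059 for the catalytic F1 part and 0.064 for the peripheral stalk.

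The small membrane subunits help ATP synthases to pair and to bend the membrane into cristae. Atp5k, subunit e, was at 6896 in transgenic cells and 3388 in non-transgenic cells, 2.04-fold higher (1.03). Its other probe sets were higher by less, at 4963 and 4077 (0.28) and at 3334 and 2571 (0.38). Atp5l, subunit g, which pairs with subunit e, was at 6297 and 3892 (0.69). All 3 probe sets of Atp5k and the only probe set of Atp5l thus lay above 0. However, the other probe sets of Atp5k both have names that mark them as cross-hybridising. Atp5md, also known as DAPIT, was at 2219 and 1487 (0.58), Atp5mpl at 4489 and 3322 (0.43) and Atp5j2, subunit f, at 8175 and 6585 (0.31). Atp5j2 had another probe set at 0.46 and a dim probe set at 293 and 340 (-0.21). The 2-fold size of Atp5k was lost when its probe sets were averaged (0.56), when that of median ratio was used (0.38) and after loess (0.96).

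The c ring turns as protons pass, and its 3 genes encode the same mature subunit behind different import sequences. Atp5g1 was at 1711 and 1923 (-0.17), Atp5g2 at 7356 and 8835 (-0.26) and Atp5g3 at 12013 and 13755 (-0.20). All were lower on the transgenic array by the representing probe sets, but another probe set of Atp5g2 was at 438 and 233 (0.91). With the mean over all probe sets the median of the 3 genes was 0.0099, but that mean takes in a probe set of Atp5g1 at 28.5 and 1.4 and one of Atp5g2 under the floor on both arrays. Averaged over the probe sets above the filter, Atp5g2 was at 0.32 and the median of the 3 genes at -0.17.

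In the F1 part, which makes the ATP, the catalytic Atp5b was at 11264 and 12416 (-0.14). Its partner Atp5a1 was at 6863 and 7451 (-0.12), with other probe sets at 0.55 and -0.31. Atp5c1, the shaft that turns inside this part, was at 8707 and 5321 (0.71), while its other, dimmer probe set was at 373 and 415 (-0.15). For Atp5a1 and Atp5c1 another probe set thus had the opposite sign, and Atp5b had no other. Atp5d was at 7683 and 5968 (0.36) with another probe set at 2679 and 4463 (-0.74), and Atp5e was at 3808 and 3968 (-0.059). In the stalk, which holds the F1 part still, Atp5pb was at 13757 and 11520 (0.26), but its other probe set was at 4202 and 5312 (-0.34). Atp5h was at 0.24 with its second probe set at 7796 and 7662 (0.025), Atp5j at -0.11 and Atp5o at -0.13, with -0.17 for the second probe set of Atp5o.

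**Figure D2:**
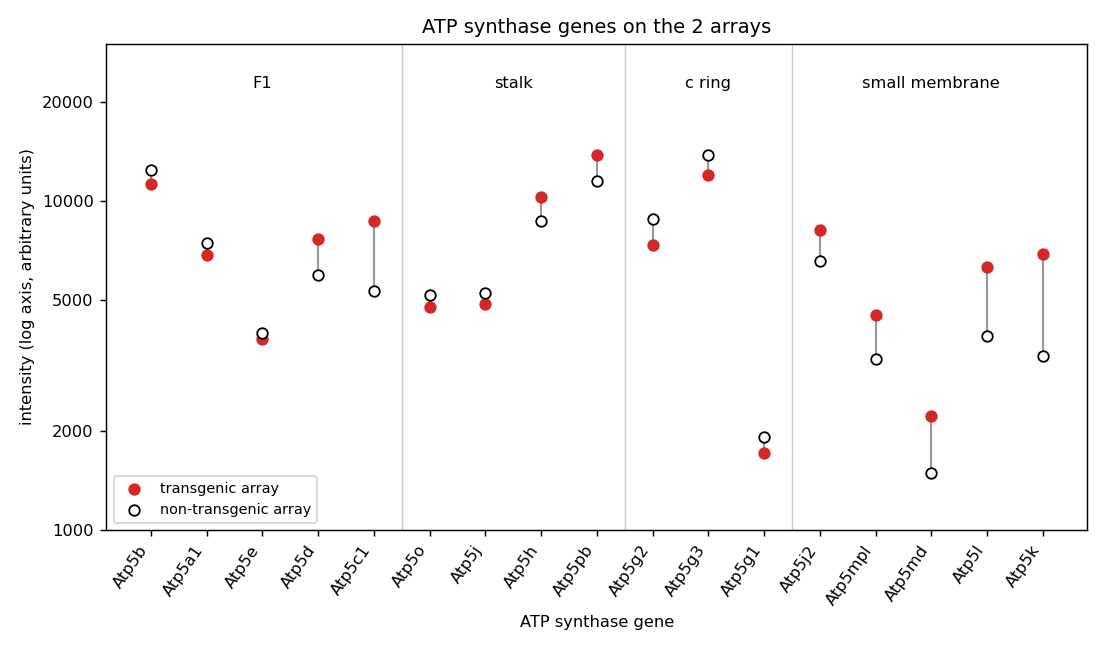
Intensities of the 17 ATP synthase genes (log axis, arbitrary units) on the transgenic array (filled) and the non-transgenic array (open), joined by a line for each gene and set out by part. The filled point is above the open point for all 5 small membrane subunits and below it for all 3 c ring genes, and the widest gap is that of Atp5k, at 6896 and 3388.

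Because the small membrane subunits and the c ring genes lay on opposite sides, their promoters are shown, together with that of Ndufc1, the gene with the next highest ratio after Atp5k. Promoters of 78 of the 94 genes were matched by gene identifier in a RefSeq table of build GRCm38.p6, which held no entry for Atp5mpl. Each sequence below is the 150 bases before the transcription start, 5′ to 3′ along the gene, and all 8 genes lie on the minus strand. Capitals mark matches, on either strand, to the motifs searched, which were the palindrome of the respiratory factor NRF1 (the run in capitals in Atp5k), CCGGAAG for ETS factors such as Gabpa, AAGATGGC for YY1 and TATAAA for the TATA box. These motifs do not contain each other. The windows are chr5:108434400-108434549 for Atp5k, chr9:44920743-44920892 for Atp5l, chr19:47090648-47090797 for Atp5md, chr5:145191542-145191691 for Atp5j2, chr11:96075632-96075781 for Atp5g1, chr15:102671048-102671197 for Atp5g2, chr2:73911327-73911476 for Atp5g3 and chr3:51408956-51409105 for Ndufc1.
Atp5k: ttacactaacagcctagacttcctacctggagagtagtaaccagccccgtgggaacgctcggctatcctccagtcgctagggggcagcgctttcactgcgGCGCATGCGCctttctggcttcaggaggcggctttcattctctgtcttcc
Atp5l: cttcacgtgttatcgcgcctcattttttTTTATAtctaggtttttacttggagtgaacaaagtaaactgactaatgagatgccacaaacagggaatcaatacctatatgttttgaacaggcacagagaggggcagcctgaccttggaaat
Atp5md: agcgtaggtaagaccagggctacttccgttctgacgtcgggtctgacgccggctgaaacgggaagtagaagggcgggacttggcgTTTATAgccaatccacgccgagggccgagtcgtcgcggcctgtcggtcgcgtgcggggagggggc
Atp5j2: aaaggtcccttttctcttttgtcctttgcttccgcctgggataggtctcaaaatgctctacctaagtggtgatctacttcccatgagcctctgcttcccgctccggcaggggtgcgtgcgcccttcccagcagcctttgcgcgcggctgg
Atp5g1: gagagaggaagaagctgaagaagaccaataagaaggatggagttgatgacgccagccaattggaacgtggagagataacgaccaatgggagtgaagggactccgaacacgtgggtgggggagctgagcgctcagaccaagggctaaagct
Atp5g2: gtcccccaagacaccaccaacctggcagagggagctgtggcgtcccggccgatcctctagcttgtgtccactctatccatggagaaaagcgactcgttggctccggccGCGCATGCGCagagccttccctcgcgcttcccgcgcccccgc
Atp5g3: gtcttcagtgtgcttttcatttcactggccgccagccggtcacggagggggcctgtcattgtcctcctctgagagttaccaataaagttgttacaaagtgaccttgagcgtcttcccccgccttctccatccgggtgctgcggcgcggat
Ndufc1: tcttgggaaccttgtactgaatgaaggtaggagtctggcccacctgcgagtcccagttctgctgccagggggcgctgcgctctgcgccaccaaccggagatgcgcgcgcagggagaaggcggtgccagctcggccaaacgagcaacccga

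The exact NRF1 motif stood in these 150 bases of Atp5k, whose ratio was 1.03, and of Atp5g2, whose ratio was -0.26, so it was found on both sides. TATA letters stood in those of Atp5l and Atp5md. Over the full windows of 300 bases, which reach 50 bases past the start, Atp5k, Atp5l and Atp5md also held the ETS motif and Atp5j2 and Ndufc1 the YY1 motif, while Atp5g1 and Atp5g3 held none of the motifs. Among the 83 promoters of the respiratory chain and ATP synthase genes, 6 (7.23%) held the NRF1 motif, against 0.971% of all 32851 promoters in the table. The ETS motif was held by 22 (26.5%, against 8.86%), the YY1 motif by 10 (12.0%, against 2.75%) and the TATA motif by 10 (12.0%, against 13.6%). Members with an ETS motif had a median log2 ratio of 0.13 (22 genes) and those without it 0.12 (52 genes). For NRF1 the medians were 0.075 (6 genes) and 0.12 (68 genes), and for YY1 0.32 (10 genes) and 0.12 (64 genes). The 10 genes with a YY1 motif ranged from -0.11 to 0.86. Members with a TATA motif had a median of 0.44, but they were 7 genes that ranged from -0.29 to 0.74. Those without it had a median of 0.12 (67 genes). These matches describe letters in the windows and not bound sites.

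Genes that work beside the chain were given as lists. For comparison, 51.2% of all genes above the filter lay above 0, 9.83% were at least 1.5-fold higher and 13.2% lower. Of 10 genes for cytochrome c, cytochrome c1 and the ubiquinone and electron flavoprotein steps, 7 lay above 0, 1 was at least 1.5-fold higher and none lower. That gene was Cyc1, the cytochrome c1 of complex III, at 4467 and 2858 (0.64), while Cycs, cytochrome c itself, was at 6425 and 6956 (-0.11). Of 26 further assembly factors above the filter, Cox19, which serves copper delivery to complex IV, was at 654 and 370 (0.82), and Ecsit, which serves complex I assembly, was at 403 and 644 (-0.68). The other 24 were within 1.5-fold, and the median of the list was 0.17. The 7 genes of the ATPase inhibitor and the carriers for phosphate, ADP and other anions were all within 1.5-fold, with a median of 0.097.

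Regulators of mitochondrial biogenesis had a median of 0.32 over 13 genes above the filter. Above 0 lay 9 of the 13, against 51.2% of all genes above the filter. At least 1.5-fold higher were 2 of the 13, against 9.83% of all genes above the filter. These were Gabpa, the ETS factor that binds promoters of respiratory genes, at 2063 and 1249 (0.72), and Tfb1m, which modifies mitochondrial ribosomal RNA, at 994 and 651 (0.61). Nrf1 was at 823 and 658 (0.32) and Yy1 at 8791 and 6734 (0.38). Tfam, which packages and transcribes mitochondrial DNA, was at 2535 and 2433 (0.059). The 4 regulators below 0 were Ppargc1b at -0.32, Gabpb1 at -0.28, Polg at -0.12 and Pprc1 at -0.025. The coactivator Ppargc1a lay under the filter (86.1 and 50.7).

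Probe sets of the same gene gave the only check within these arrays, and they read the same RNA, so they are not replicates. Of the 89 genes, 49 had at least 1 other probe set above the filter, 77 in all. Of these, 45 (58.4%) had the same sign as the representing probe set, close to the 58.5% of 9155 such probe sets over all genes. The median distance between the ratios was 0.33 on the log2 scale, against 0.38 over all genes. It was larger than the median ratio of these genes, 0.12. In 22 of the 49 genes all probe sets above the filter lay above 0, in 3 (Sdhc, Cox8a and Atp5o) all lay below, and in 24 they lay on both sides. Distances over 1 were found for 4 probe sets, in Atp5d, Atp5g2, Uqcr10 and Uqcrq. Many respiratory genes have processed copies elsewhere in the genome, and which of these a probe set also reads was not examined.

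**Figure D3:**
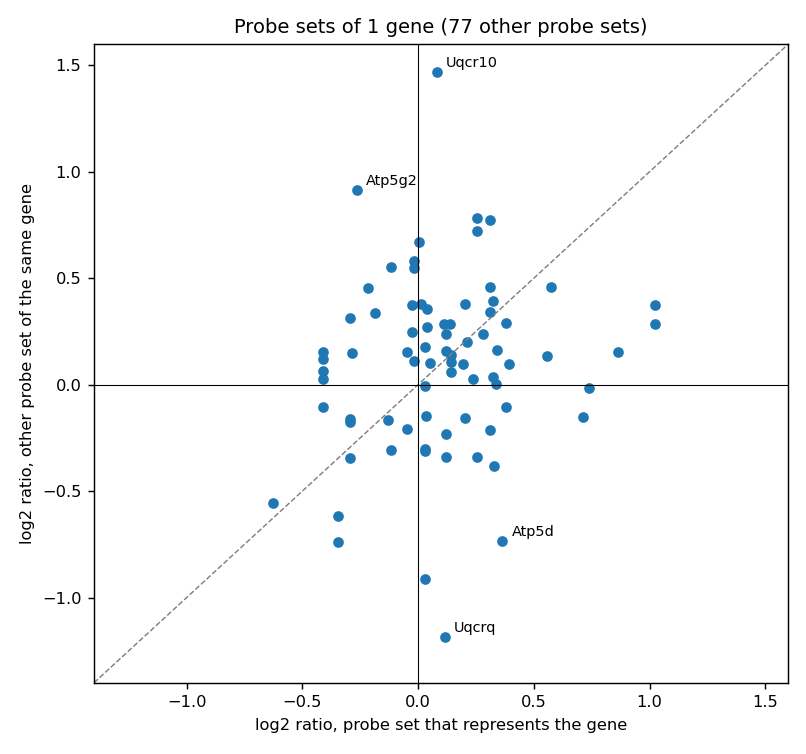
Log2 ratio (transgenic over non-transgenic) of each of 77 other probe sets against that of the probe set that represents the same gene, with the line of equality dashed. The points scatter widely around the line, 45 of 77 have the same sign on both axes, and the 4 named points lie more than 1 log2 unit from it.

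The level of a gene bore on its ratio. Over all genes the median ratio was -0.050 under a mean intensity of 1000, 0.096 from 1000 to under 10000 and -0.23 from 10000 up. For the genes described here the medians in these ranges were 0.15 (12 genes), 0.12 (68 genes) and 0.11 (9 genes). The 9 at 10000 and above ranged from -0.29 to 0.26, and the 241 other genes of that range had a median of -0.24 with a range from -1.56 to 0.73. The highest class of these genes thus had a median above that of other genes as bright, with ranges that overlapped. The median alignment of the arrays raised the median of all genes from 0.015 to 0.19 and that of these genes from 0.12 to 0.28, so that both moved together. With it, 58.1% of all genes past 2-fold were higher, against 36.2% as deposited, 48.1% after quantile normalization and 53.4% after loess.

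**Figure D4:**
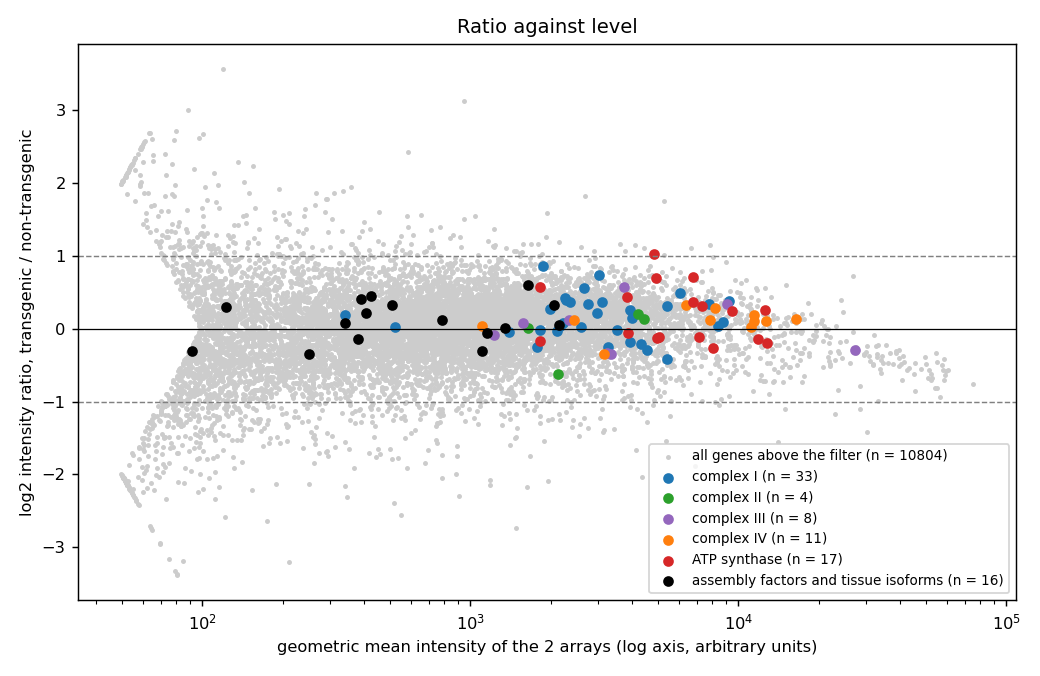
Log2 ratio (transgenic over non-transgenic) against the geometric mean intensity (log axis, arbitrary units) for all 10804 genes above the filter (grey) and the 89 respiratory chain and ATP synthase genes (coloured by complex), with dashed lines at 2-fold. The coloured points lie mostly between 1000 and 10000 and within the grey band, and the grey band bends below 0 at the bright end.

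Markers of cell types were compared because the pools may differ in their cells, and in bulk RNA fewer cells of a type and less RNA per cell cannot be told apart. The defining B cell genes lay above the filter on both arrays, and 7 of 7 on the list were lower on the transgenic array. Their median was -0.58, with a range from -1.42 to -0.47 and summed intensities of 120542 and 208719. Of these, Cd22, Cd79a, Cd79b, Ms4a1 and Ptprc stood above 10000 on both arrays. The 250 genes with a mean of 10000 and above had a median of -0.23 and a range from -1.56 to 0.73. As a background for the counts here, 51.2% of all genes above the filter had a ratio above 0. Natural killer cell genes summed to 6248 and 4350, and 4 of 6 were higher. Their median was 0.47. The T cell list summed to 1247 and 1480 with 1 of 6 higher, the dendritic cell list to 1962 and 2005 with 3 of 4 higher, and the myeloid list to 16666 and 17997 with 1 of 5 higher. The plasma cell list summed to 25645 and 31997 with 2 of 4 higher, and no red cell gene reached the filter. The part of these differences in the ratios of respiratory genes was not tested. For the beta-actin control, signal at the 3′ end over signal at the 5′ end was 1.49 in transgenic cells and 1.25 in non-transgenic cells and that of Gapdh 0.775 and 0.670, and their part was not tested either.

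**Figure D5:**
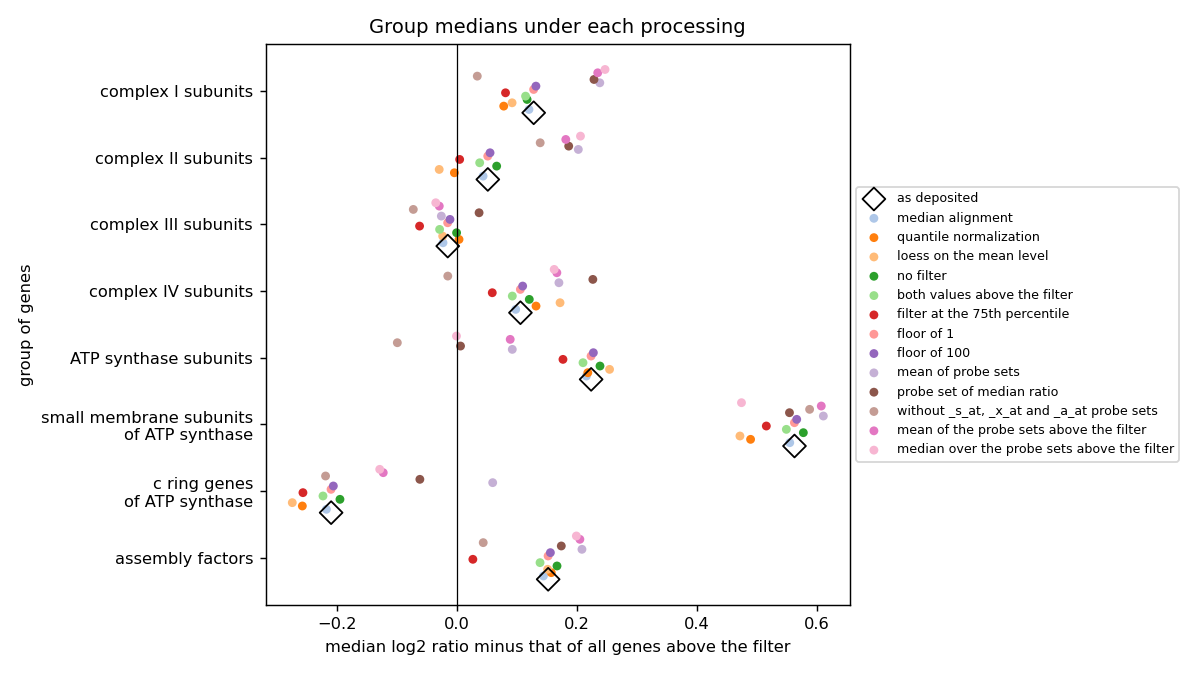
Median log2 ratio of each group minus that of all genes above the filter, as deposited (open diamond) and under the 13 other ways of processing (coloured points). The small membrane subunits of the ATP synthase stay between 0.47 and 0.61, whereas the ATP synthase as a whole runs from -0.10 to 0.25. Among the small membrane subunits, Atp5l, Atp5md and Atp5mpl have 1 probe set each, which the probe set rules cannot change.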

How the data were processed

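The file used here is the table of deposited signal intensities, 1 per probe set and array, from an Affymetrix mouse array. Per the labels, biotin was added to fragmented cDNA made from total RNA. The software, background step and scaling used by the authors are not given in the sources used here. On both arrays the mean after leaving out 2% at each end was 500.0, and the median was 93.1 in transgenic cells and 104.3 in non-transgenic cells. The values are linear and uncentred. The 64 control probe sets were left out of the ratios, 34945 probe sets have 1 symbol, 932 several and 9160 none.

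Values were used as deposited, because aligning the medians over all probe sets shifts the genes above the filter. The floor was the pooled 25th percentile and the filter the pooled median. With 1 array per group no test was made, and precision is limited by the number of arrays. The genes named are those past 2-fold, the 5 highest and 5 lowest, the highest, lowest, median and brightest of each complex, core catalytic subunits, tissue isoforms and genes with probe sets over 1 log2 unit apart. Other members are named to complete their part. The members, lists and rules were chosen with earlier results of these data known. The steps were tested on simulated data. The 11 alternatives listed first were 3 scalings, 3 filters, 2 floors and 3 probe set rules, and 2 further probe set rules, the mean and the median over a gene's probe sets above the filter, were added after seeing the data. They stand beside fold thresholds of 1.5 and 3. A planned comparison with protein length was not made here. Python 3.11.15, numpy 2.4.6, pandas 2.3.3, statsmodels 0.14.6 and matplotlib 3.10.9 were used.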

Additional observations from a re-analysis of the deposited data

How the results depend on the processing

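Medians below are relative to all genes above the filter, and a median is taken as moved when it changes by more than 0.1 on the log2 scale. The small membrane subunits of the ATP synthase (0.47 to 0.61), all members (0.027 to 0.20) and complex III (-0.073 to 0.037) stayed within that limit of the value as deposited under all 13 alternatives. However, Atp5l, Atp5md and Atp5mpl have 1 probe set each, so no probe set rule changes their own ratios. Under those rules the median of the 5 small membrane genes could only lie between 0.43 and 0.69, before that of all genes is subtracted. Their stability under the probe set rules was thus partly fixed in advance. With the mean of probe sets the medians were 0.24 for complex I, 0.20 for complex II and 0.092 for the ATP synthase, and that of the c ring turned to 0.059, a mean that takes in probe sets of Atp5g1 and Atp5g2 under the filter. With the probe set of median ratio they were 0.23 for complex I, 0.19 for complex II, 0.23 for complex IV, 0.0057 for the ATP synthase and -0.062 for the c ring. For an even number of probe sets this rule takes the lower of the middle pair, so lower ratios under it follow in part from the rule. Chosen after seeing the data, the mean over the probe sets above the filter gave 0.23, 0.18 and 0.089 for complex I, complex II and the ATP synthase, and the median over them, with the middle pair averaged, gave 0.25, 0.21 and -0.0010. Without probe sets marked as shared or cross-hybridising or common to several transcripts, complex I lay at 0.034 against 0.13 as deposited, complex IV turned to -0.016 and the ATP synthase to -0.10, the assembly factors were at 0.044, and 1 gene, Uqcrq, was at least 2-fold lower. With the filter at the 75th percentile the assembly factors were at 0.026. Against 1 gene at least 2-fold higher as deposited, there were 2 after median alignment and without the filter, 0 after loess and under each of the 4 other rules for joining the probe sets of a gene, 6 at 1.5-fold and 0 at 3-fold. At 1.5-fold 1 gene was lower. The cause of the other changes was not tested. Of the genes past 1.5-fold, Atp5c1 turned to -0.15 and Ndufb7 to -0.014 without the marked probe sets, and Ndufc1 fell to 0.15. This setting leaves the second probe set of each of these genes. For Sdhc, the gene at least 1.5-fold lower, it leaves no probe set. Complex II lay at -0.0045 after quantile normalization and at -0.030 after loess, against 0.051 as deposited. No paired analysis was possible because each group has 1 array and no ratio comes from a test. Low intensities limit the tissue isoforms most, since 4 of 8 lie under the filter.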

Other observations

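Ndufa4l2 had the largest ratio among the 5 members under the filter, at 59.5 in transgenic cells and 13.6 in non-transgenic cells. The second value lies under the floor, and with a floor of 100 the ratio was 0, so no fold is given. Among the dimmer probe sets of members, that of Uqcrq at 264 and 602 and that of Uqcr10 at 115 and 41.5 went furthest from the representing probe sets of their genes.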
